A study of Homo sapiens with 12 samples.

Results

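The cytosolic ribosomal protein genes code for the proteins that, with ribosomal RNA, make up the ribosomes of the cytosol. They were taken by symbol: RPL or RPS followed by a number and at most a single-letter suffix, with RPLP0, RPLP1, RPLP2, RPSA and FAU added, and with pseudogenes and the RPS6K kinases left out. Of 82 such symbols in the gene table, 80 had at least 10 counts in at least 3 libraries and are described here, out of 36459 symbols in all. RPL3L and RPL10L fell below that minimum. The 80 genes comprise 33 of the small subunit and 47 of the large subunit.

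The libraries came from HEK293, an established human embryonic kidney line grown in culture. Cultures received vehicle, oleic acid (a monounsaturated fatty acid), FAC (the iron salt ferric ammonium citrate, named in the study's design as the inducer of ferroptosis, in which iron-dependent oxidation of lipids kills the cell), or oleic acid and FAC together, with 3 libraries in each of the 4 groups. All groups share the same unmodified line, and the labels give neither doses nor treatment times. Nor do they say whether replicates were separate cultures, so the p-values reflect no more than the differences among these libraries, which may be technical.

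Each ribosome carries nearly all of these proteins in a single copy, and their mRNAs are among the most abundant in a dividing cell. Most of these mRNAs begin with a cytosine followed by an unbroken run of pyrimidines, the 5′ terminal oligopyrimidine (TOP) motif, through which the kinase mTOR and the RNA-binding protein LARP1 set how much of them is translated. Proteins that are not built into ribosomes are mostly degraded, and the free 5S particle, which holds RPL5 and RPL11, can bind the ubiquitin ligase MDM2.

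Library totals ran from 14098216 to 18717397 counts. The HEK293 markers were all detected, led by VIM (mean 825 CPM), and summed markers of endothelium, blood and hepatocytes stayed at or below 2.46 CPM in each library. Summed fibroblast markers ran from 9.22 to 19.1 CPM, led by COL1A1, and summed epithelial markers from 144 to 251 CPM, led by KRT8. For these markers CPM is the count scaled to a common library total. The CPM of single genes given below also carry scaling factors from the trimmed mean of M values (TMM). A pair of libraries stood apart. Across all genes, deviation from the group mean and log2 transcript length had a correlation of -0.52 in the third oleic acid library and of -0.39 in the third oleic acid + FAC library, against -0.23 to 0.37 in the other 10. These are correlations across genes, which are not independent replicates, and negative values mean that short transcripts were relatively high. Mitochondrially encoded mRNAs took 12.1% of the counts of the latter library and 3.33% to 7.50% elsewhere. The ribosomal protein genes have short transcripts, with a median length of 723 bases in 79 of them against 2813 bases over all tested genes with a length. Results are therefore given with all libraries, without this pair, and with the trend on transcript length removed in each library.

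The start sites of these genes show what the mRNAs share in sequence. RefSeq (GRCh38.p14) gave start sites on which 64 of the 80 genes matched, and windows of 30 bases, 15 before and 15 from the start site on, were read 5′ to 3′ on the strand of the gene. Capitals mark the longest pyrimidine run anywhere in each window. It is a candidate TOP stretch only where it lies at the start site, since the motif begins the mRNA. The run of RPS29 begins 15 bases before the annotated start site and that of RPS27L 8 bases after it, so neither is such a candidate. The genes were chosen to show the highest and lowest fold changes below (RPL36A, RPL38, RPL10A), the member past the test under most alternatives (RPL22), the ribosomal stalk (RPLP1), the phosphorylated marker protein of mTOR signalling (RPS6), and members with little or no such run (RPS29, RPS27L).
RPL36A, chrX:101390996-101391025, plus strand: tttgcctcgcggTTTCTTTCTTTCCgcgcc
RPL38, chr17:74203663-74203692, plus strand: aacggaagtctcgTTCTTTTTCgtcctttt
RPL22, chr1:6199581-6199610, minus strand: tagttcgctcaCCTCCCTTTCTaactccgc
RPLP1, chr15:69452803-69452832, plus strand: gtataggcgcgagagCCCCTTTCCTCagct
RPS6, chr9:19380222-19380251, minus strand: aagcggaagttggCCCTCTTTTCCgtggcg
RPL10A, chr6:35468386-35468415, plus strand: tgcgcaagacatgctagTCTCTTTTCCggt
RPS29, chr14:49598696-49598725, minus strand: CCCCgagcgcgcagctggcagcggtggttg
RPS27L, chr15:63157463-63157492, minus strand: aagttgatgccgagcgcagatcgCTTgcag

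A run of at least 8 pyrimidines lay in the window of 52 of the 64 genes (81.25%), against 16.5% of the 27305 genes with a window. The median longest run was 11 bases in the ribosomal protein genes and 5 over all genes. The letters TTTCC on the sense strand occurred in a window of 43.8% of the members and of 6.56% of all genes. On the other strand they occurred in 3.12% and 4.77%. CTTCC occurred in 39.1% and 9.12% on the sense strand, and in 6.25% and 8.56% on the other; both motifs were searched on both strands and can overlap where a run holds each. A gene with several annotated start sites was counted once. Its run was the longest over its windows, and it counted as holding a motif if any of its windows held it. These matches describe letters in a window and no binding or translation was measured.

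Per length, the ribosomal protein mRNAs were among the most abundant in the cells. Levels per length (TPM, from the deposited transcript counts and GENCODE 29 lengths) were computed for the 76 members whose annotated transcripts held at least 95% of the gene's counts. RPL7A, RPS25, RPS27 and RPS9 held 50%, 50%, 1.11% and 94.1% of theirs on transcripts found in that annotation, and have no level per length here. In vehicle, 62 of the 76 were among the 100 highest of 35524 genes, and the 76 together made up 21.0% of the TPM. Their median was 2695 TPM, and 61 of the 76 lay within 2-fold of it. The highest were RPS2 of the small subunit (8601 ± 1176 TPM, SD, n = 3), RPL41, the shortest ribosomal protein (6825 ± 138), and RPL8 (5159 ± 643), and the spread of RPL8 did not reach that of RPL41. The lowest were the paralog RPL39L (25.3 ± 1.69), the paralog RPS27L (149 ± 29.1) and FAU, whose product is a fusion of a ubiquitin-like protein with a small subunit protein (561 ± 71.0). FAU, RPS26 (631 ± 15.5) and RPL22 (651 ± 32.3) are neighbours in that order, and their means differed by about their spread or less. Reads from near-identical copies can be split between them by the counting, so levels of RPL23A, RPS2, RPL21, RPL22, RPL9 and RPS28 carry an added uncertainty. The 1134 ribosomal protein pseudogene symbols together held 0.172% to 0.232% of the counts in a library, led by RPL23AP42. Beside a single parent gene this can be large. RPL23AP42 held 207997 counts summed over all 12 libraries. RPL23A held 13287 to 21777 in each single library, which comes to a total of similar size over all of them.

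The ribosomal protein genes took a larger share of the mRNA counts in the cells given oleic acid and FAC together than in vehicle. Their share was 10.5%, 9.12% and 8.25% of the counts in the vehicle libraries 1 to 3. It was 9.03%, 9.48% and 12.3% with oleic acid, and 10.2%, 9.77% and 10.7% with FAC. With both agents it was 11.1%, 12.2% and 13.5%, so every such library lay above every vehicle and every FAC library, while the range overlapped that of oleic acid through the third oleic acid library. Group means were 9.28% ± 1.11, 10.3% ± 1.76, 10.2% ± 0.451 and 12.3% ± 1.20 (SD, n = 3) in that order. A share is relative: more ribosomal protein mRNA and less of all other mRNA cannot be told apart. The balance between the subunits hardly moved, with a ratio of large to small subunit counts of 1.59 to 1.63 in all 12 libraries.

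**Figure D1:**
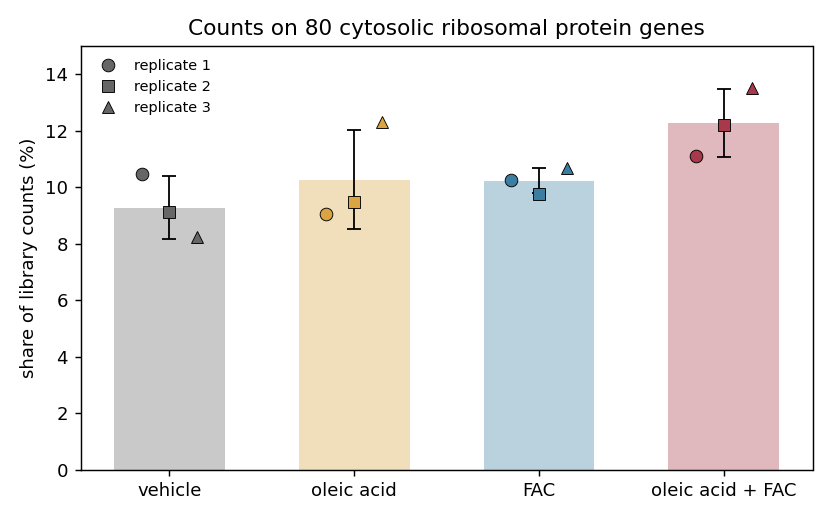
Share of each library's counts on the 80 cytosolic ribosomal protein genes, in percent (y axis), by group (x axis). Bars are group means, error bars the SD over 3 libraries and symbols single libraries; the 3 oleic acid + FAC libraries, from 11.1% to 13.5%, sit above the 3 vehicle libraries, from 8.25% to 10.5%.

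The 80 genes moved together from library to library. A single shift per library accounted for 90.3% of the variance of their log2 levels over the 12 libraries. The shift had an SD of 0.32 on the log2 scale, against 0.10 for a single gene around it. Among the genes that followed the shared shift most closely were the small subunit genes RPS13 and RPS7 (SD around it 0.03 and 0.04). Those that followed it least were RPL39L (0.23), RPS27L (0.22) and RPL10A (0.22). The shift also differed between replicates of a group. The median gene stood at 0.19, -0.05 and -0.14 relative to the vehicle mean in the vehicle libraries, at -0.06, 0.05 and 0.58 with oleic acid, at 0.19, 0.04 and 0.36 with FAC, and at 0.31, 0.55 and 0.94 with both. In each of the 4 groups the highest value was that of the library with the most negative correlation between deviation and transcript length. That correlation was -0.23 in vehicle 1 and in FAC 3. It was -0.52 in oleic acid 3 and -0.39 in oleic acid + FAC 3. Values with the trend on transcript length removed are given below. That step also removes any change by treatment that follows length, so a technical trend and such a change cannot be told apart.

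**Figure D2:**
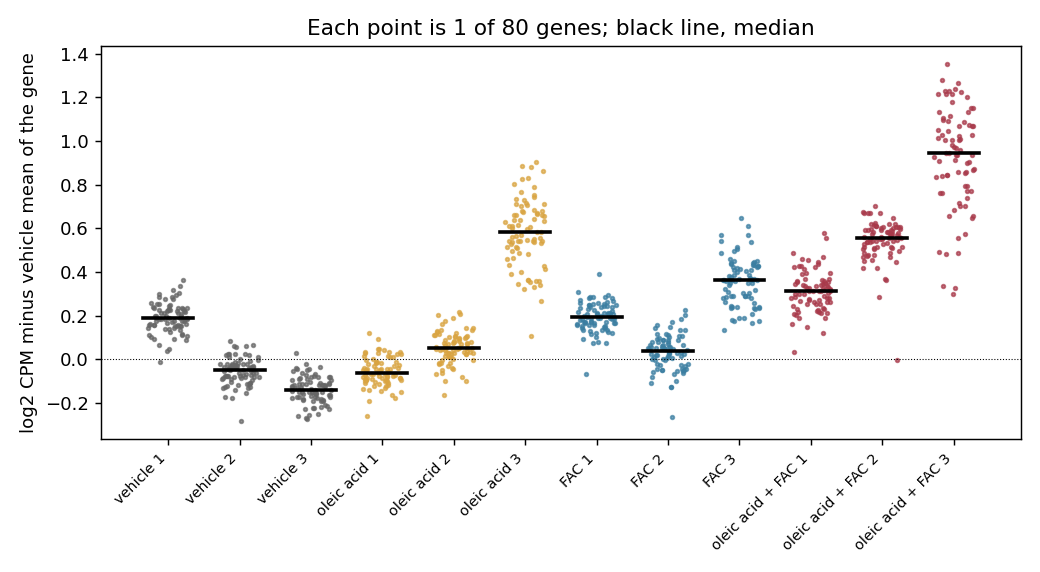
Level of each of the 80 genes in each of the 12 libraries (x axis) as log2 CPM minus that gene's vehicle mean (y axis). Points are genes and black lines medians; the genes of a library lie close together, and the libraries' medians range from -0.14 (vehicle 3) to 0.94 (oleic acid + FAC 3).

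FAC against vehicle asks how the iron salt changed these mRNAs. All 80 genes had a positive log2 fold change, from 0.04 to 0.32 with a median of 0.19, against 51% of all 14209 tested genes and a median of 0.01. None passed the test: with edgeR's quasi-likelihood test no member reached an adjusted p (Benjamini-Hochberg over all genes) under 0.05, against 1.19% of all genes called. At an unadjusted p under 0.05 and higher, 0 of 80 stood beside 4.72% of all genes. DESeq2 and limma-voom also called 0, where they called 1.53% and 0.472% of all genes as higher. The libraries of the groups did not overlap in 6 of the 80 genes (RPL3, RPL11, RPL22, RPL41, RPLP0 and RPS29), a share of members below the 10% of all genes that were higher without overlap. The highest values were those of RPL22 (log2 fold change 0.32, SE 0.18) and RPL36A (0.31, SE 0.26), and the lowest was that of RPS27L (0.04, SE 0.29), which does not differ from them beyond the errors.

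Oleic acid against vehicle gave positive values that rested on the third oleic acid library. All 80 genes were positive, from 0.04 to 0.38 with a median of 0.22, against 49.8% of all genes. In edgeR 0 of 80 were called (0% of all genes), and 0 had an unadjusted p under 0.05 and a higher level (0.535% of all genes). All 80 overlapped between the groups, while 1.93% of all genes were higher without overlap. DESeq2 and limma-voom called 0 members and 0% of all genes. With the third library left out of the oleic acid group and of the oleic acid + FAC group, the median was -0.01 and 32 of 80 were positive. The values of RPL36A (0.38, SE 0.26) and RPLP1 (0.33, SE 0.23) were the highest, and those of RPL10A (0.04, SE 0.11) and RPL8 (0.09, SE 0.18) the lowest.

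Oleic acid + FAC against FAC asks what the fatty acid changed in iron-treated cells. All 80 genes were positive, from 0.19 to 0.57 with a median of 0.43, against 50.4% of all genes positive, while no gene of the whole table was called (0%). Among the members 27 had an unadjusted p under 0.05 and a higher level, against 2.15% of all genes, and the smallest adjusted p was 0.707 in edgeR. The libraries did not overlap in 27 of the 80, against 4.61% of all genes higher without overlap. DESeq2 and limma-voom called 0 members, and 0.00457% and 0% of all genes as higher. The median was 0.23 without the pair of libraries that stood apart and 0.10 with the length trend removed. RPL38 (0.57, SE 0.29) and RPL34 (0.56, SE 0.24) had the highest values with all libraries, and RPL10A (0.19, SE 0.11) the lowest. Without oleic acid + FAC replicate 3 the values of RPL38 and RPL34 were 0.21 and 0.28.

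Oleic acid + FAC against oleic acid asks what iron changed in cells given the fatty acid. All 80 genes were positive, from 0.25 to 0.53 with a median of 0.40, against 50.4% of all genes positive. In edgeR 0 of 80 were called, against 2.21% of all genes, with 26 members at an unadjusted p under 0.05 and higher (6.83% of all genes) and a smallest adjusted p of 0.192, that of RPL3. The libraries did not overlap in 8 of 80 genes, among them RPL3, RPL10, RPL10A, RPS27A and RPSA, against 7.85% of all genes. DESeq2 called RPL3 (0.44, adjusted p 0.0467) and RPL10A (0.31, adjusted p 0.0226), beside 2.53% of all genes called higher, and limma-voom called 0 members and 0.683% of all genes. The median was 0.44 without the pair of libraries and 0.15 with the length trend removed, when RPL3 was called (0.35, adjusted p 0.0469; 2.58% of all genes higher). RPS24 (0.53, SE 0.26) and RPL14 (0.51, SE 0.24) were highest with all libraries, and RPS29 (0.25, SE 0.15) was among the lowest. Without oleic acid + FAC replicate 3 the median was 0.22, and RPS24 and RPL14 stood at 0.19 and 0.20; without oleic acid replicate 3 the median was 0.63, and they stood at 0.80 and 0.75.

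Oleic acid + FAC against vehicle, which shares its libraries with the comparisons above, gave the widest separation. All 80 genes were positive, from 0.34 to 0.84 with a median of 0.62, or 0.62 in the small and 0.63 in the large subunit, against 49.6% of all genes positive. No member was called by edgeR (3.07% of all genes were), with adjusted p-values from 0.0591 (RPS29) to 0.376 (RPS27L). At an unadjusted p under 0.05, 79 of 80 were higher, against 10.8% of all genes, and 72 of 80 did not overlap between the groups, against 13.8% of all genes. The 8 that overlapped included RPL13A, RPL28, RPLP2, RPS2 and RPS27L. Since the members moved mostly by a single shift per library, these counts of members are not separate observations. The same holds for such counts in the other comparisons. Limma-voom called 0 of the 80 and 0.95% of all genes as higher, while DESeq2 called 59 of the 80 and 4.37% of all genes. Without the pair of libraries that stood apart, edgeR called 6 members (1.57% of all genes higher) and the median was 0.43. With the length trend removed it called 9 of 79 (3.61% of all genes higher), and the median was 0.19. Both steps together, an alternative chosen after seeing the data, gave 4 calls (2.98% of all genes higher), and fitting without the filter on low counts gave 7 (0.712%). RLE size factors, TMM computed without the members and a fit of only these groups called 0 members, where 1.13%, 1.34% and 0.327% of all genes were called higher. With the replicate number as a block, edgeR called more members than in any of these edgeR fits, as given in the closing section.

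**Figure D3:**
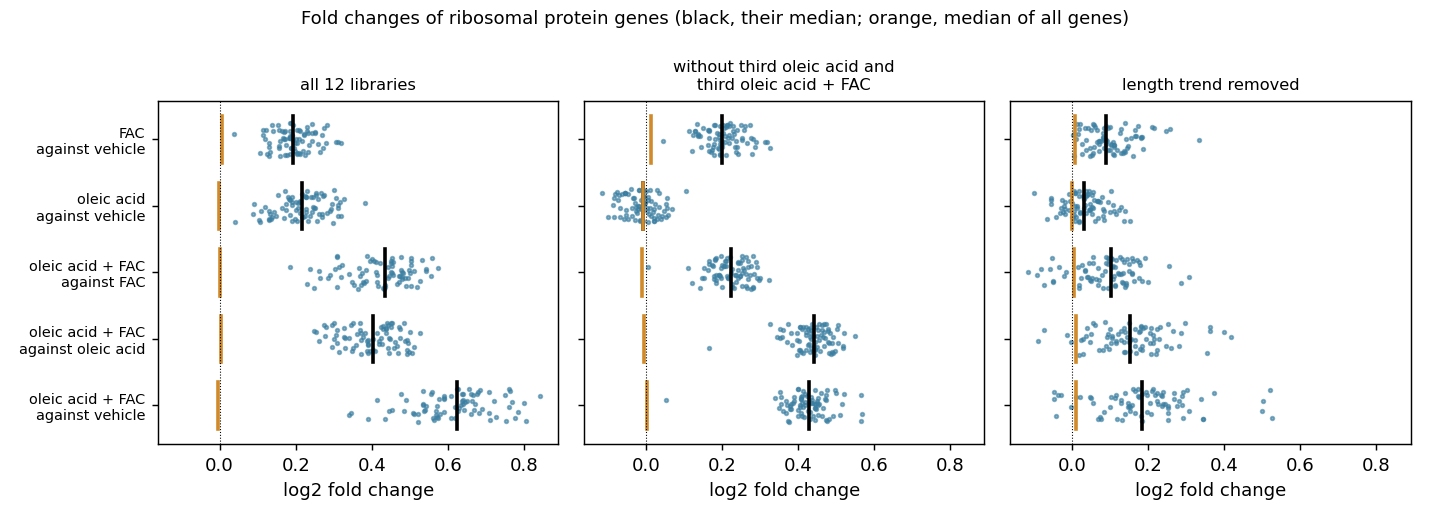
Log2 fold change (x axis) of each ribosomal protein gene (points) in 5 comparisons between groups (y axis), with all libraries (left), with the third library of each oleic acid group left out (middle) and with the length trend removed (right, 79 genes). Black lines are the members' medians and orange lines those of all tested genes; for oleic acid + FAC against vehicle the members' median is 0.62, 0.43 and 0.19 from left to right.

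The interaction, which tests whether the effect of both agents together differed from the sum of their single effects, was not detected. Its log2 value was lowest in RPS29 (-0.02) and had a median of 0.21, and 79 of 80 were positive against 50.9% of all genes. The median was 0.065 with the length trend removed (64 of 79 positive), and 0.014 without oleic acid + FAC replicate 3 (45 of 80 positive). It was also lower without vehicle replicate 1 (0.098), oleic acid replicate 1 (0.087), oleic acid replicate 2 (0.13) or FAC replicate 2 (0.14), and higher without oleic acid replicate 3 (0.44) or oleic acid + FAC replicate 1 (0.35). The gene-level median without both libraries of the pair that stood apart is not given here. Over the members' transcripts the median interaction was 0.06 with all libraries and 0.14 without that pair. The edgeR test gave 0 calls (0% of all genes), an adjusted p of 1.00 for each member and 0 members higher at an unadjusted p under 0.05 (0.317% of all genes); DESeq2 and limma-voom called 0.

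Transcript length and fold change were negatively correlated over all genes in each comparison, and among the members in 4 of 6. For oleic acid + FAC against vehicle, log2 fold change and log2 length correlated at -0.32 over 13667 genes and at -0.25 over the 79 members with a length; genes share libraries and are not independent. The correlation over all genes was -0.02 for FAC against vehicle and -0.25 for oleic acid against vehicle. Over the members these values were -0.17 and -0.43, and the members' medians with the trend removed were 0.09 and 0.03. For oleic acid + FAC the correlation was -0.38 against FAC and -0.17 against oleic acid over all genes, and -0.20 and 0.03 over the members. For the interaction it was -0.16 over all genes and 0.17 over the members.

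**Figure D4:**
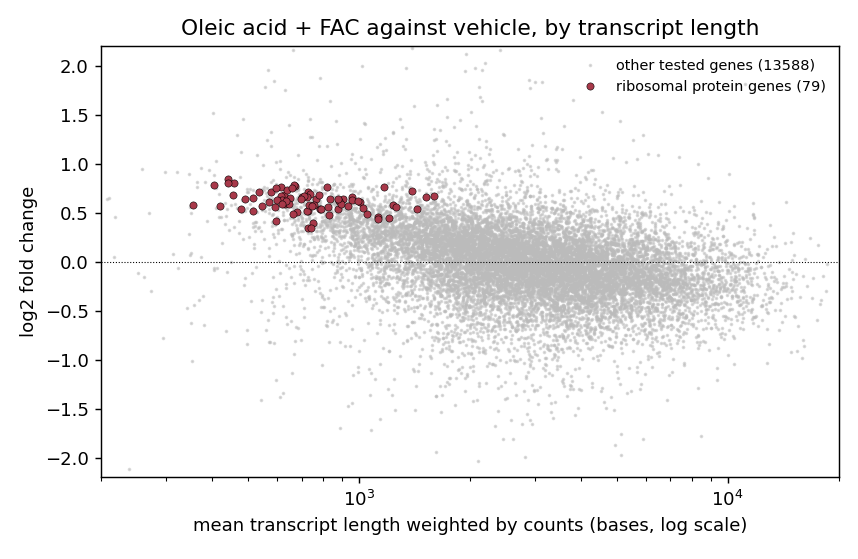
Log2 fold change in oleic acid + FAC against vehicle (y axis) by transcript length in bases on a log axis (x axis), for 79 ribosomal protein genes (red) and 13588 other genes (grey); 56 genes fall outside the axes. Short genes lie higher than long ones over the whole table, and the ribosomal protein genes lie at its short end, with a median of 723 bases.

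The large subunit gene RPL22, which codes for an RNA-binding protein that is dispensable for translation, passed the test under 7 of the 16 alternatives in oleic acid + FAC against vehicle, more than any other member. It lies at chr1:6185020-6209389 (GENCODE 29, GRCh38, minus strand). Its level was 416, 444 and 399 CPM in vehicle, 380, 474 and 610 with oleic acid, 484, 490 and 596 with FAC, and 529, 667 and 804 with both. Each FAC library and each oleic acid + FAC library was above each vehicle library. The log2 fold change of both agents against vehicle was 0.67 (SE 0.18, adjusted p 0.0691 in edgeR), and 0.51 (adjusted p 0.0478) without the pair of libraries that stood apart. With the length trend removed it was 0.53 (adjusted p 0.0163). The small subunit gene RPS18, singled out after its values were seen, passed under 6 of the 16 alternatives, with 0.76 (SE 0.21, adjusted p 0.0692) with all libraries and 0.28 with the length trend removed.

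RPL22L1, the paralog of RPL22 and outside the rule for members, rose in oleic acid + FAC against vehicle. It stood at 40.8, 36.5 and 32.3 CPM in vehicle, 42.3, 41.5 and 52.0 with oleic acid, 44.3, 43.2 and 47.8 with FAC, and 55.4, 56.7 and 73.1 with both. The libraries with both agents were above all others. The log2 fold change was 0.76 (SE 0.14, adjusted p 0.0168 in edgeR), 0.62 without the pair of libraries and 0.42 with the length trend removed, past the threshold in each. Leaving out vehicle replicate 2 or 3 ended the call (adjusted p up to 0.0934), as did fitting only these groups (0.0522).

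In oleic acid + FAC against vehicle the fold changes with all libraries were highest for the large subunit genes RPL36A and RPL38. RPL36A had 676, 539 and 512 CPM in vehicle and 841, 866 and 1390 with both agents, which is 0.84 on the log2 scale (SE 0.26, adjusted p 0.0917). RPL38, known for its part in translating Hox mRNAs in mouse embryos, had 843, 636 and 629 CPM in vehicle and 889, 1013 and 1780 with both (0.80, SE 0.30). In both genes the third oleic acid + FAC library was far above its 2 replicates, and without it the log2 fold changes were 0.57 (RPL36A) and 0.44 (RPL38), beside a median of 0.43 over the members. At the other end, RPL10A had 746, 664 and 601 CPM in vehicle and 850, 858 and 838 with both agents. Its log2 fold change was 0.34 (SE 0.11), and its libraries did not overlap between the groups. RPL10A also had the smallest SD between replicates of the 80 genes, 0.09 on the log2 scale, and RPS27L the largest, 0.43.

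RPL5 and RPL11, the proteins of the 5S particle, were among the 79 members with an unadjusted p under 0.05 in oleic acid + FAC against vehicle. RPL5 had 1932, 1777 and 1694 CPM in vehicle, 1696, 1945 and 2374 with oleic acid, 1953, 1916 and 2241 with FAC and 2097, 2563 and 3213 with both. RPL11 had 1052, 1006 and 912 in vehicle, 909, 1068 and 1462 with oleic acid, 1107, 1123 and 1285 with FAC and 1179, 1505 and 1992 with both. The vehicle and oleic acid + FAC libraries did not overlap in either gene. Their log2 fold changes were 0.54 (SE 0.17, adjusted p 0.101) and 0.65 (SE 0.20, adjusted p 0.0941).

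The stalk, which recruits the elongation factors, is built of RPLP0, RPLP1 and RPLP2. RPLP0, its base, had 1869, 1889 and 1680 CPM in vehicle and 2125, 2725 and 2550 with both agents. RPLP1 had 1276, 1079 and 1015 CPM in vehicle and 1343, 1659 and 2208 with both. RPLP2 had 566, 456 and 431 CPM in vehicle and 558, 704 and 1070 with both. Only RPLP2 of these 3 overlapped between the groups, through its first library with both agents. Log2 fold changes were 0.44 (SE 0.15), 0.63 (SE 0.23) and 0.68 (SE 0.24), whose errors overlap.

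Of the small subunit, RPS6 is the substrate of the S6 kinases, RPSA also serves as a laminin receptor at the cell surface, and RPS27A is made as a fusion with ubiquitin. RPS6 had 2370, 2068 and 1962 CPM in vehicle and 2487, 3044 and 4325 with both agents (0.62, SE 0.21). RPSA had 1545, 1281 and 1171 CPM in vehicle and 1699, 1855 and 1847 with both (0.43, SE 0.15). RPS27A had 819, 687 and 721 CPM in vehicle and 975, 1045 and 1203 with both (0.53, SE 0.15). None of these groups overlapped. FAU (0.64, SE 0.25) and the large subunit gene RPL3, part of the peptidyl transferase centre (0.53, SE 0.15), did not overlap either. RPS29 had the smallest adjusted p of all members, at 193, 180 and 170 CPM in vehicle and 248, 287 and 269 with both (0.57, SE 0.15). The longest pyrimidine run in its window was of 4 bases and lay before the annotated start site.

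The paralogs RPS27L and RPL39L were low. RPS27L had 74.4, 48.5 and 56.8 CPM in vehicle, 58.4, 52.7 and 92.0 with oleic acid, 56.2, 49.2 and 79 with FAC and 65.4, 58.8 and 122 with both. Its libraries overlapped in every comparison, and its log2 fold change in oleic acid + FAC against vehicle was 0.45 (SE 0.29). RPL39L, best known from the testis, had 11.9, 9.67 and 10.5 CPM in vehicle and 15.9, 13.0 and 13.1 with both (0.39, SE 0.16), with no overlap. Across the 64 genes with a window, those with a pyrimidine run of at least 8 had a median log2 fold change of 0.63 (52 genes) and the others 0.61 (12 genes) in oleic acid + FAC against vehicle.

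At the level of transcripts no isoform of these genes was called with all libraries. The table held 811 annotated transcripts of the members, of which 603 were tested among 51464. In edgeR 0 were called in any comparison, where the share of all transcripts called was 0.00777% in FAC against vehicle, 0% in oleic acid against vehicle, 0.00194% in oleic acid + FAC against FAC and in the interaction, 0.0117% against oleic acid and 0.0175% against vehicle. At an unadjusted p under 0.05 in either direction, the members' transcripts numbered 13 in FAC against vehicle (2.16% of those tested, against 4.47% of all transcripts), 12 in oleic acid against vehicle (1.99% against 2.11%) and 16 in the interaction (2.65% against 2.5%). With both agents they numbered 48 against FAC (7.96% against 3.97%), 54 against oleic acid (8.96% against 6.14%) and 147 against vehicle (24.4% against 8.1%). Without the pair of libraries that stood apart, oleic acid + FAC against oleic acid called 0.045% of all transcripts. By group means, the leading transcript of a gene was the same in all 4 groups for all 76 members with a full match. It held at least 80% of the gene's counts in 43 of the 76 and was annotated as protein coding in 71. In RPL4, RPL14, RPS23 and RPS28 the leading transcript was annotated as a retained intron, and in RPL37 as a processed transcript, with 54.4% (RPL37) to 75.7% (RPL14) of the gene's counts in vehicle. RPL15 was the most divided gene, with 33.7% ± 1.58 on RPL15-204 and 31.8% ± 0.0304 on RPL15-209 in vehicle (SD, n = 3). RPL11 followed, with 38.9% ± 1.47 on RPL11-201 and 37.6% ± 2.04 on the retained-intron form RPL11-205, against 44.1% ± 2.04 and 34.1% ± 1.98 with both agents. In single libraries the order turned in both genes. RPL11-205 led RPL11-201 in vehicle 3 (39.3% against 38.2%), and also in vehicle 1 and FAC 2. RPL15-209 led RPL15-204 in oleic acid 3 (38.1% against 33.5%), and also in FAC 1 and oleic acid + FAC 3. RPL10-203 took 41.3% ± 4.02 of RPL10 counts in vehicle and 46.7% ± 11.4 with both, where the third library alone stood at 59.7%.

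Other genes of the TOP class were mostly positive in oleic acid + FAC against vehicle and had no calls with all libraries. Of 20 TOP genes of the translation apparatus outside the ribosome, such as elongation and initiation factors, 0 passed the edgeR test in any comparison with all libraries. In oleic acid + FAC against vehicle all 20 were positive with a median of 0.39, against a median of 0.00 over all genes. That median was 0.29 without the pair of libraries and 0.23 over 18 genes with the length trend removed. With that trend removed 2 passed the test, where 3.61% of all genes were called higher. The members' medians under the same 3 settings were 0.62, 0.43 and 0.19, so the order of the lists turned with the length trend removed; the difference between them was not tested. TPT1 (0.64, SE 0.18, adjusted p 0.0793), a protein that is a standard TOP example, and the elongation factor EEF1A1 (0.35, SE 0.15, adjusted p 0.190) are examples. The regulators and kinases of TOP mRNAs, 19 genes with LARP1, had a median of 0.05 and 0 calls. With the length trend removed 1 was called higher, beside 3.61% of all genes. LARP1 itself had 530 ± 96.9 CPM in vehicle and 503 ± 57.8 with both (SD, n = 3).

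With all libraries, the medians of genes that build ribosomes did not share the members' direction. For assembly factors and RNA polymerase I genes the medians under the other settings are not given here. Whether the direction held there is therefore not shown. Of 45 ribosome assembly factors, 2 fell and 0 rose in oleic acid + FAC against vehicle, and their median was -0.04. In either direction 3.07% of all genes were called there, a share near that of the list. Without the pair of libraries 3 fell, beside 3.32% of all genes called lower. With the length trend removed 2 of 44 fell, beside 4.16% of all genes. NAT10, the acetyltransferase of 18S ribosomal RNA, fell from 110 ± 6.77 to 76.2 ± 7.33 CPM (-0.52, SE 0.10, adjusted p 0.0188), and NVL, an ATPase of large subunit assembly, from 71.5 ± 11.1 to 48.9 ± 5.62 (-0.55, SE 0.13, adjusted p 0.0395). Of 14 tested genes of the RNA polymerase I machinery, which makes ribosomal RNA, TAF1C fell (-0.74, SE 0.18, adjusted p 0.0409) and the median was -0.13. Without the pair 0 were called. With the length trend removed 2 fell, where 4.16% of all genes were called lower. Leaving out single libraries ended the calls of NVL and TAF1C in all cases except vehicle replicate 1, and the call of NAT10 for vehicle replicates 2 and 3 and oleic acid + FAC replicates 2 and 3. Without the pair of libraries that stood apart NVL and TAF1C were not called (adjusted p 0.0505 and 0.0646) and NAT10 was (0.0161). The 79 mitochondrial ribosomal protein genes had 0 calls and a median of 0.19 in this comparison, 0.04 without the pair and -0.04 with the length trend removed. Without the pair 2 of the 79 fell (3.32% of all genes were called lower), and with the length trend removed 5 of 77 fell (4.16% of all genes). The 5 ribosomal protein genes outside the rule had a median of 0.55, with RPL22L1 the only call, and the list of snoRNA host genes had no member among the tested genes.

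HEATR3, which carries RPL5 to the nucleus, fell in cells given FAC. Of 10 chaperones of ribosomal proteins it was the only call with all libraries in the 3 comparisons of FAC-treated with FAC-free groups. Of all genes, 1.19% (FAC against vehicle), 2.21% (both agents against oleic acid) and 3.07% (both against vehicle) were called there in either direction. For both agents against vehicle, 2 of the 10 fell without the pair of libraries and with the length trend removed. The shares of all genes called lower in these settings are given above. HEATR3 stood at 37.6, 42.1 and 45.1 CPM in vehicle, 40.9, 37.1 and 36.1 with oleic acid, 28.3, 27.5 and 25.8 with FAC, and 25, 22.5 and 26.3 with both. All 6 libraries with FAC lay below all 6 without it. The log2 fold change was -0.61 (SE 0.11, adjusted p 0.0200) for FAC against vehicle, -0.63 (SE 0.11, adjusted p 0.0149) for oleic acid + FAC against oleic acid and -0.76 (SE 0.11, adjusted p 0.00502) against vehicle. The last call held when any of the 6 libraries compared was left out, while the FAC against vehicle call held only without vehicle replicate 1 (adjusted p up to 0.119 otherwise). The call against oleic acid was lost without oleic acid replicate 1 or oleic acid + FAC replicate 2, and when only these groups were fitted (adjusted p 0.153).

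In the list of the 5S particle and its surveillance, which also holds HEATR3, BBC3 rose in the same 3 comparisons. It was named because it passed the test. Of all genes, 1.19% (FAC against vehicle), 2.21% (both agents against oleic acid) and 3.07% (both against vehicle) were called in either direction. The number of genes in this list is not given here. BBC3 codes for PUMA, a promoter of apoptosis. It stood at 26.3, 26.7 and 22.6 CPM in vehicle, 25.7, 19.5 and 34.7 with oleic acid, 46.6, 48.4 and 45.8 with FAC, and 51.6, 52.9 and 55.6 with both, so that all 6 FAC libraries were above the other 6. The log2 fold change was 0.90 (SE 0.17, adjusted p 0.0209) for FAC against vehicle, 1.01 (adjusted p 0.0103) for both agents against oleic acid and 1.08 (SE 0.17, adjusted p 0.00598) for both against vehicle. The first of these calls was lost whenever any of its 6 libraries was left out (adjusted p up to 0.135), and the last without vehicle replicate 3 (0.0526). The call against oleic acid was lost without oleic acid replicate 1 (0.0562) or oleic acid + FAC replicate 2 (0.0504), and when only these groups were fitted (0.145). MDM2 (239 ± 17.3 CPM in vehicle, 200.1 ± 21.6 with both) did not pass the test.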

How the data were processed

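Poly-A RNA of 12 HEK293 libraries was sequenced after TruSeq library construction, per the labels' protocols. Kallisto 0.46.1, bcl2fastq 2.19, sleuth 0.30.0 and build GRCh38.p12 (hg38) are named, per the submitters' processing notes. The deposited values are estimated counts per gene symbol and per transcript, per the labels; all were whole numbers, so none was rounded. Genes passing filterByExpr (14209) were scaled by TMM and fitted in edgeR 4.0.16 (R 4.3.3) by quasi-likelihood over all 12 libraries, with two-sided tests and a threshold of 0.05 on the Benjamini-Hochberg adjusted p over all genes. Alternatives used DESeq2 1.42.0, limma 3.58.1 (voom), other scalings, no filter, fewer libraries, and a lowess trend on log2 transcript length removed per library. Lengths came from GENCODE 29, where the matched transcripts held at least 50% of the gene's counts. The fits were tested on simulated counts.

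Members, related lists and tests were chosen with earlier results of these data known. Named members are the 2 highest and 2 lowest fold changes of a comparison, a fixed set by role (stalk, 5S particle, fusion proteins, paralogs), the extremes of level per length, of isoform share and of SD between replicates, and the called genes of the lists; a few of these genes are not reported here. A count of 0 allows up to 3 counts, or 0.160 to 0.213 CPM without TMM factors, for counting error only.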

Additional observations from a re-analysis of the deposited data

How the results depend on the processing

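Counts of members past the threshold changed in oleic acid + FAC against vehicle, where none passed with all libraries: DESeq2 called 59, the fit with no filter called 7, the fit with the third library of each oleic acid group left out 6, removal of the length trend 9, and both of these together, chosen after seeing the data, 4; limma-voom, RLE size factors, TMM without the members and the fit of only these groups called 0. Against oleic acid, DESeq2 called 2 and removal of the length trend 1. The median log2 fold change with the length trend removed was 0.19 against vehicle (0.19 also without those libraries) and 0.10 against FAC (0.095 without them). Of a total without mitochondrially encoded mRNAs, the shares were 9.78% in vehicle, 10.97% in oleic acid, 10.8% in FAC and 13.3% with both agents. Without the same libraries 1 member transcript, RPL22-204, was called against oleic acid. It had 0 counts in the 2 remaining oleic acid libraries, which allows up to 3 counts in each, and 115 in the third.

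Leaving out single libraries moved the median from 0.11 to 0.29 (FAC against vehicle), from -0.003 to 0.35 (oleic acid against vehicle), from 0.24 to 0.58 (both against FAC), from 0.22 to 0.63 (both against oleic acid), from 0.43 to 0.77 (both against vehicle) and from 0.01 to 0.44 (interaction). Members called ranged from 0 to 4 in both against vehicle, the 4 without oleic acid + FAC replicate 1 (0.90% of all genes were called higher there), and stayed at 0 in the other comparisons. Member transcripts called ranged from 0 to 1 in the comparisons with both agents and the interaction. Shares ranged from 8.69% to 9.79% in vehicle, 9.26% to 10.9% in oleic acid, 10.01% to 10.46% in FAC and 11.7% to 12.8% with both.

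With the replicate number as a block, 45 members were called in both against vehicle (median 0.58), where 1528 genes of the table were called, 4.76% as higher, against 436 without the block, and 0 members elsewhere, with medians of 0.17 (FAC), 0.18 (oleic acid), 0.42 (both against FAC), 0.41 (both against oleic acid) and 0.23 (interaction). No member transcript was called with the block. The labels do not say that a replicate number marks a shared culture or day, so the main fit did not pair the libraries. Yet 11 of 12 libraries correlated best with their own number. Of 18 same-numbered pairs, 13 had correlated deviations over 0.1 (from -0.07 to 0.61). Whether the libraries are paired was not tested, and the calls against vehicle depend on it. Shares from the transcript table lack counts on transcripts absent from GENCODE 29, mainly of RPS27, RPL7A and RPS25.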
